A study of Homo sapiens with 3 samples.

Results

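The core circadian clock was followed through a knockdown of NONO in UM-UC-3 cells, an established human bladder cancer line. The 10 genes are CLOCK and BMAL1, the 3 PER genes, CRY1 and CRY2, BHLHE40 and BHLHE41, and NR1D2. They were chosen by name, as core members of a loop in which NONO is known as a partner of PER proteins, and all 10 were found among the 21308 genes listed in all 3 deposited tables. All 10 also reached 1 CPM (CPM are reads on a gene after scaling each library to the same total) in at least 1 library and were among the 13922 genes tested. One culture condition was compared per library: a negative control siRNA (1 library) or either of 2 different NONO siRNAs (1 library each), each given at 75 nM with a lipid reagent for 48 h in medium with 10% serum. All cells were thus exposed to an siRNA, and each library of 100 bp paired-end reads was taken at a single time. The labels name no step that sets the cells to a common clock phase, so a change in the level of a clock gene and a shift in its phase cannot be told apart here. In bulk RNA, fewer cells with a transcript and less of it per cell also cannot be told apart.

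The mammalian clock is a feedback loop of transcription. CLOCK and BMAL1 bind E-boxes in DNA as a pair and switch on the PER and CRY genes, whose proteins return to the nucleus and restrain that pair. BHLHE40 and BHLHE41 compete for the same E-boxes as repressors, and NR1D2 (REV-ERB beta) and its paralog NR1D1 repress BMAL1 through ROR elements. NONO, which binds both RNA and DNA, was found in complexes with PER proteins in rodent cells, and its fly relative, NonA, is also known for a part in rhythms. The question put to the comparison is which clock genes differ in level between the control and NONO siRNA libraries.

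The siRNA strands given in the labels are shown first because they define the groups and because the seed, bases 2 to 8 of a strand and printed in capitals, can also pair with other transcripts.
Control siRNA, strand as labelled: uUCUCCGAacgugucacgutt
NONO siRNA 1, strand as labelled: gGCGAAGUcuucauucauatt
NONO siRNA 1, complementary strand: uAUGAAUGaagacuucgcc
NONO siRNA 2, strand as labelled: gCAUCCCUuacaguucgaatt
NONO siRNA 2, complementary strand: uUCGAACUguaagggaugc
Both labelled NONO strands match NONO transcripts along 19 bases, so the complementary strands are the ones that can pair with NONO mRNA. The sites lie in exon 3 (GRCh38 chromosome X, 71291925 to 71291943) and exon 4 (71294320 to 71294338) of the 11 exons of transcript NONO-202. None of the 3 siRNAs matched a clock transcript along its full length.

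NONO was at 823 CPM with the control siRNA, 79.5 CPM with siRNA 1 and 104 CPM with siRNA 2, so the libraries matched their labels. The implied depth was 27681990, 29408573 and 28594569 reads. Among markers of urothelium, KRT8 and KRT18 were present at 43.0 to 111 CPM, while KRT5, KRT20, UPK1B, UPK3A and CDH1 were not listed in all 3 tables, and the 10 listed of 15 markers summed to 201 CPM in the control, 102 with siRNA 1 and 190 with siRNA 2. The 3 mesenchymal markers summed to 1610, 1224 and 1232 CPM in the same order, of which VIM was lower in both knockdown libraries (1380, 947 and 960 CPM), while CDH2 (54.6, 70.0 and 80.8 CPM) and ZEB1 (176, 207 and 191 CPM) were higher. Of the leukocyte markers only ITGAM was listed in all 3 tables, at 1.30 CPM or less, and the endothelial list summed to 57.6, 16.3 and 31.5 CPM, nearly all of it TIE1. The part of these shifts in the clock values was not tested.

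No clock gene passed the main test, limma on log2(CPM + 1) with an adjusted p under 0.05, although 2 repressor genes, BHLHE41 and PER1, stood at 35.8% to 48.9% of the control with both siRNAs. Over all genes limma called 0.215%, made up of 0.136% higher (19 genes) and 0.079% lower (11 genes), or 2 higher and 3 lower with TMM or upper-quartile scaling, so 0 of 10 lies near the background. At an unadjusted p under 0.05 there were 3 of the 10 (BHLHE41, PER1 and NR1D2), against 11.4% of all genes tested. With the reads recovered from the CPM values, edgeR and DESeq2 each called BHLHE41 lower and no other clock gene, where edgeR called 0.92% of all genes (0.507% higher and 0.413% lower) and DESeq2 called 1.68% (1.17% higher and 0.508% lower). Of the 10 genes, 5 were lower than the control with both siRNAs (PER1, PER2, CRY1, CRY2 and BHLHE41) against 34.5% of all genes, and 3 were higher with both (PER3, BHLHE40 and NR1D2) against 37.8%. CLOCK and BMAL1, the activating pair, had folds of opposite sign with the 2 siRNAs. Both folds of a gene share the control library, so an unusual level there moves both the same way. The median log2 fold of the 10 was -0.14 with siRNA 1 and -0.22 with siRNA 2, beside 0.025 and 0.0073 over all genes tested.

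**Figure D1:**
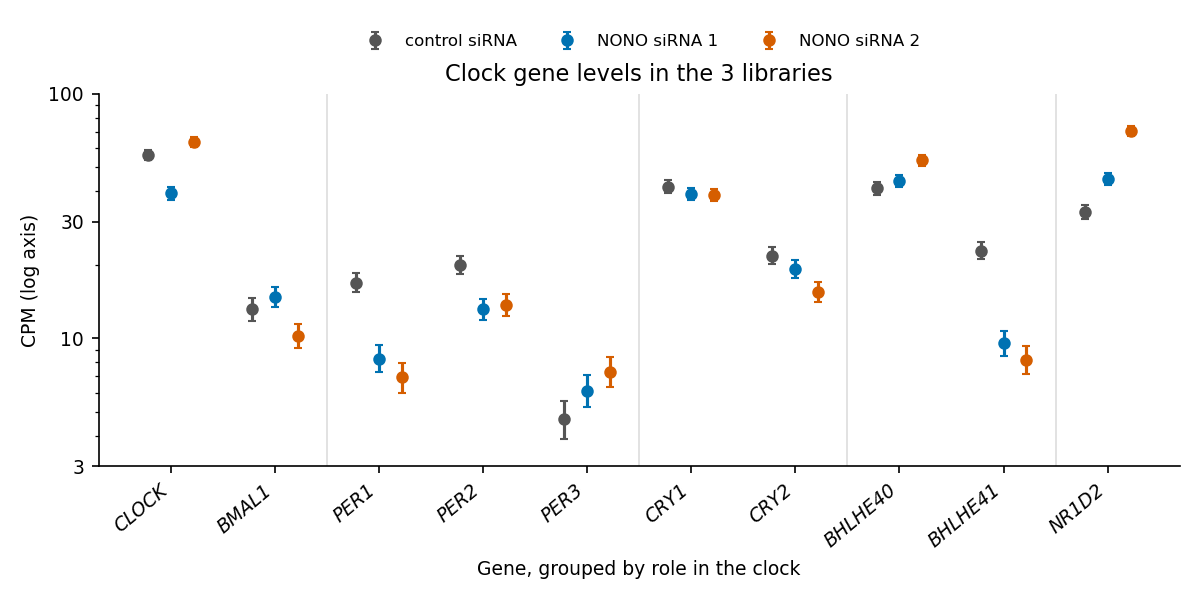
Level of each clock gene in CPM on a log axis in the control (grey), NONO siRNA 1 (blue) and NONO siRNA 2 (orange) libraries, with exact 95% Poisson intervals that cover counting error only; grey lines part activators, PER, CRY, BHLHE and NR1D genes. PER1, PER2 and BHLHE41 stand below the control in both knockdown libraries, NR1D2 stands above it, and CLOCK lies on either side.

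Between genes, levels were compared per kilobase of merged exon, and BHLHE40 was highest in all 3 libraries. In the control BHLHE40 stood at 10.7 CPM per kb and CRY1 was next at 8.26 CPM per kb. BHLHE41 at 5.79 and NR1D2 at 5.67 CPM per kb had overlapping Poisson intervals, and CLOCK followed at 4.79 CPM per kb. CRY2 stood at 3.51, PER2 at 2.90, PER1 at 2.41, BMAL1 at 1.96 and PER3 at 0.575 CPM per kb, each apart from its neighbour by more than the counting error. With siRNA 1 the order from the top was BHLHE40, NR1D2 and CRY1, CLOCK and CRY2, then BHLHE41, BMAL1 and PER2, then PER1 and PER3, where the intervals of NR1D2 and CRY1, of CLOCK and CRY2, of BHLHE41 and BMAL1, and of BMAL1 and PER2 overlapped. With siRNA 2 NR1D2 was second at 12.1 CPM per kb and BHLHE41 stood at 2.07 CPM per kb, with an interval that overlapped those of CRY2 and PER2. In that library PER1 at 0.989 and PER3 at 0.902 CPM per kb could not be told apart by counting. Merged exons hold every annotated isoform, so genes with many long isoforms appear lower on this scale.

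The activating pair gave no common direction. CLOCK, a histone acetyltransferase and bHLH-PAS activator (ENSG00000134852, GRCh38 chromosome 4, 55427903 to 55547138, minus strand), stood at 56.3 CPM in the control, 39.1 CPM with siRNA 1 and 63.5 CPM with siRNA 2. It was thus lowest with one NONO siRNA and highest with the other, and the ratio of siRNA 1 over siRNA 2 was 0.616 (95% interval 0.572 to 0.663, counting error only). Against the control, CLOCK had log2 folds of -0.51 and 0.17. BMAL1, its partner, whose loss alone abolishes daily rhythms in mice (ENSG00000133794, chromosome 11, 13276652 to 13387266, plus strand), had a control level of 13.1 CPM and stood at 14.8 CPM with siRNA 1 and 10.2 CPM with siRNA 2. It took the reverse order to CLOCK, with a ratio of 1.44 (1.24 to 1.68). The log2 folds of BMAL1 were 0.16 and -0.33. The limma adjusted p was 0.890 for CLOCK (SE 0.32) and 0.945 for BMAL1 (SE 0.31). BMAL1 reads as a share of CLOCK plus BMAL1 reads were 18.9% in the control, 27.4% with siRNA 1 and 13.9% with siRNA 2.

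The PER genes, which code for proteins of the repressing complex, did not share a direction. PER1 (ENSG00000179094, chromosome 17, 8140472 to 8156506, minus strand) gave 468 reads or 16.9 CPM in the control (95% Poisson interval 15.4 to 18.5). With siRNA 1 the library held 243 PER1 reads, or 8.26 CPM (7.26 to 9.37), and with siRNA 2 it held 198, or 6.92 CPM (5.99 to 7.96). Both knockdown libraries lay below the control interval and overlapped each other. PER1 was at 48.9% and 41.0% of the control, with log2 folds of -0.95 and -1.18 (SE 0.29, adjusted p = 0.186 in limma, 0.0877 in edgeR and 0.142 in DESeq2). PER2 (ENSG00000132326, chromosome 2, 238244038 to 238290102, minus strand) showed the same order at a smaller size. It stood at 20.0 CPM in the control, 13.2 CPM with siRNA 1 and 13.7 CPM with siRNA 2, with log2 folds of -0.57 and -0.51 (SE 0.27, adjusted p = 0.505 in limma). PER3 (ENSG00000049246, chromosome 1, 7784320 to 7845177, plus strand) had its lowest level in the control, unlike its paralogs. It gave 129 reads or 4.66 CPM there, 6.12 CPM with siRNA 1 and 7.31 CPM with siRNA 2. The intervals of the control (3.89 to 5.54) and siRNA 1 (5.26 to 7.08) overlapped, and the log2 folds were 0.33 and 0.55 (SE 0.29, adjusted p = 0.636 in limma).

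Shares within a family do not depend on how libraries are scaled, and they show how the make-up of the PER reads differed. PER1 made up 40.7% of all PER reads in the control (exact Clopper-Pearson 95% interval 37.8 to 43.6), 30.0% with siRNA 1 (26.9 to 33.3) and 24.8% with siRNA 2 (21.8 to 27.9). PER3 made up 11.2% (9.45 to 13.2), 22.2% (19.4 to 25.2) and 26.2% (23.1 to 29.4) in the same libraries. PER2 stayed between 47.8% and 49.1% of the PER reads in all 3. The knockdown libraries therefore held fewer PER1 and more PER3 reads within the family, with intervals apart from the control, in numbers of reads that also reflect transcript length. Each share is from 1 library and has no replicate check.

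**Figure D2:**
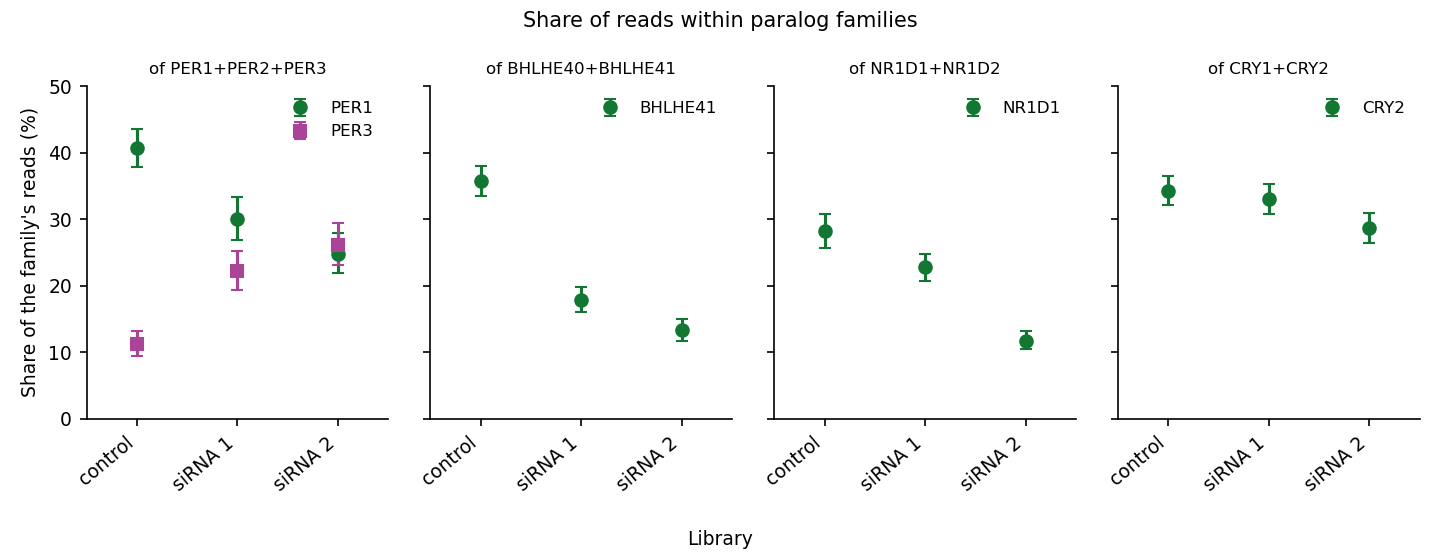
Share of a paralog family's reads, in percent, taken by PER1 and PER3, BHLHE41, NR1D1 and CRY2 in each library, with exact 95% binomial intervals (counting error only). BHLHE41 takes 35.7% of its pair's reads in the control and 17.8% and 13.3% in the knockdown libraries, and PER3 takes 11.2%, 22.2% and 26.2% of the PER reads.

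The promoters of PER1 and PER2 hold a motif through which CLOCK and BMAL1 act, an E-box or an E′-box. So do windows of BHLHE40, BHLHE41, NR1D2, CRY1, CRY2 and CLOCK. Promoter sequences are those of RefSeq (build GRCh38.p14), 250 bases before to 50 after an annotated start, and 15 windows were found for the 10 genes. The motifs searched on both strands were the E-box CACGTG (its own complement), the E′-box CACGTT, the D-box TTATGTAA, the core of the ROR element AGGTCA and the core of the cAMP response element TGACGT, all printed in capitals.
PER1 promoter, chr17:8152355-8152654, minus strand: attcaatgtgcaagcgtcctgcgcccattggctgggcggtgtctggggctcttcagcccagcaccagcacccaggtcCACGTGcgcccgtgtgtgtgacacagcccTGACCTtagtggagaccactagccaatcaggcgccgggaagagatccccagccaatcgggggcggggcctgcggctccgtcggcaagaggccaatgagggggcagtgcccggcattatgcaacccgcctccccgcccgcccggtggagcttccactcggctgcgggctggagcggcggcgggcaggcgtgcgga
PER2 promoter, chr2:238288561-238288860, minus strand: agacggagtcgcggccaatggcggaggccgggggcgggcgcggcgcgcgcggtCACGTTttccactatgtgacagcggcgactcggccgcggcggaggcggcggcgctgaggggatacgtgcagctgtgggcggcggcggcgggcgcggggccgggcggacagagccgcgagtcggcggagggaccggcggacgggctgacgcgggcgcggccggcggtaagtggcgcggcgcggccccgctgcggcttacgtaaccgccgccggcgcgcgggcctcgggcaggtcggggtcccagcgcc
PER1 holds an E-box 173 bases before its start and an AGGTCA core 144 bases before it, and PER2 holds an E′-box 197 bases before its start. An E-box occurs in 9.21% of the 14881 promoter windows of tested genes, an E′-box in 5.93% and the AGGTCA core in 10.2%. E′-boxes also lie in the window of CRY1, 89 bases before its start, and in the second windows of CRY2 and CLOCK. The AGGTCA core also lies in both CRY2 windows and in the first BMAL1 window, 32 bases after the start. A match is a run of letters and does not show that a factor binds there. The part of these motifs in the levels was not tested.

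CRY1 lay near its control level with both siRNAs, and CRY2 was somewhat lower. CRY1, the stronger repressor of the pair in mouse cells (ENSG00000008405, chromosome 12, 106991364 to 107093829, minus strand), stood at 41.8 CPM in the control, 39.0 CPM with siRNA 1 and 38.6 CPM with siRNA 2. All 3 Poisson intervals overlapped, and the log2 folds were -0.099 and -0.11 (SE 0.25, adjusted p = 0.916 in limma). CRY2, its paralog (ENSG00000121671, chromosome 11, 45847118 to 45883248, plus strand), had a control level of 21.8 CPM and stood at 19.2 CPM with siRNA 1 and 15.5 CPM with siRNA 2. The library with siRNA 2 lay below the other two by more than counting error, and the log2 folds were -0.17 and -0.47 (SE 0.28, adjusted p = 0.730 in limma). Among the clock transcripts searched, CRY2 was the one with a seed site of any of the siRNA strands in its 3′ UTR, a match to the labelled strand of NONO siRNA 2. A site of that strand lies in the 3′ UTR of 11.8% of the 11792 protein-coding genes searched. For the control siRNA the share is 1.78% (labelled strand) and 2.65% (complementary strand). For NONO siRNA 1 it is 1.37% and 13.8% in the same order, and for the complementary strand of NONO siRNA 2 it is 4.18%. A match to any of the strands is thus more common than 11.8%, and whether CRY2 stands out from that background was not tested. The CRY2 site is shown with its neighbours and the match in capitals.
CRY2 site for the labelled strand of NONO siRNA 2: agagggactcAGGGATGgggactgcca
The part of this site in the CRY2 value was not tested.

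BHLHE40 and BHLHE41, paralogs also known as DEC1 and DEC2 that repress through E-boxes, did not move together. BHLHE41 (ENSG00000123095, chromosome 12, 26120026 to 26125127, minus strand) gave 633 reads or 22.9 CPM in the control (95% Poisson interval 21.1 to 24.7). Its 281 reads with siRNA 1 came to 9.56 CPM (8.47 to 10.7), and its 234 reads with siRNA 2 came to 8.18 CPM (7.17 to 9.30). Both knockdown libraries were far below the control and overlapped each other, at 41.8% and 35.8% of it. The log2 folds were -1.18 and -1.38 (SE 0.28). They put BHLHE41 among the 0.668% of genes tested that were at least 2-fold lower with both siRNAs on the log2(CPM + 1) scale. PER1, at 48.9% and 41.0% of the control in CPM, missed that bound on this scale with siRNA 1 (-0.95). The adjusted p was 0.118 in limma, 0.0364 in edgeR and 0.0282 in DESeq2, and it ranged from 0.0282 to 0.566 over the 9 other settings, 2 of which called it. BHLHE40 (ENSG00000134107, chromosome 3, 4979116 to 4985323, plus strand), which is also induced by low oxygen, stood at 41.1 CPM in the control, 44.1 CPM with siRNA 1 and 53.6 CPM with siRNA 2. The library with siRNA 1 overlapped the control in its Poisson interval and that with siRNA 2 lay above both, with log2 folds of 0.098 and 0.37 (SE 0.26, adjusted p = 0.791 in limma). BHLHE41 thus made up 35.7% of the pair's reads in the control (exact 95% interval 33.5 to 38.0), 17.8% with siRNA 1 (16.0 to 19.8) and 13.3% with siRNA 2 (11.7 to 14.9).

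Both promoters hold an E-box, and the windows are shown with it. The part of this motif in the levels of the paralogs was not tested.
BHLHE41 promoter, chr12:26124988-26125287, minus strand: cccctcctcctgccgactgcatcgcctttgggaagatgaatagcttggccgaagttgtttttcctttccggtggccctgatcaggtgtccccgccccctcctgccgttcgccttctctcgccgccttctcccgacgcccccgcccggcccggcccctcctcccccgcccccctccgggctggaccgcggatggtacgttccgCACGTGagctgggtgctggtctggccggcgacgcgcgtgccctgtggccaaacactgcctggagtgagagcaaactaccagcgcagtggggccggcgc
BHLHE40 promoter, chr3:4979187-4979486, plus strand: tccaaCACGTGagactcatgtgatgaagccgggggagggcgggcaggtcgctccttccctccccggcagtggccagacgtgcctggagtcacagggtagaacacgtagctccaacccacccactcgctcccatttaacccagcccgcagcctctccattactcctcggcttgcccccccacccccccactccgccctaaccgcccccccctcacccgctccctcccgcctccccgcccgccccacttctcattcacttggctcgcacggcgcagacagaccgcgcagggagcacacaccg
The E-box of BHLHE41 begins 48 bases before the start and that of BHLHE40 begins 245 bases before it. Neither window holds an E′-box, a D-box, an AGGTCA core or a TGACGT core.

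NR1D2 was the clock gene with the highest folds. It codes for REV-ERB beta, a nuclear receptor that binds heme and represses through ROR elements (ENSG00000174738, chromosome 3, 23945260 to 23980618, plus strand). It gave 913 reads or 33.0 CPM in the control (95% Poisson interval 30.9 to 35.2), 1320 reads with siRNA 1, which is 44.9 CPM (42.5 to 47.4), and 2018 reads with siRNA 2, which is 70.6 CPM (67.5 to 73.7). All 3 intervals were apart, and the siRNAs differed from each other by a ratio of 0.636 (0.593 to 0.682, counting error only). NR1D2 had log2 folds of 0.43 and 1.07 (SE 0.31, adjusted p = 0.400 in limma, 0.342 in edgeR and 0.493 in DESeq2). Its paralog NR1D1 (REV-ERB alpha), which shares 263 exonic bases with THRA on the other strand, stood at 12.9 CPM in the control, 13.2 CPM with siRNA 1 and 9.37 CPM with siRNA 2. NR1D1 was 28.2% of the reads of the pair in the control (exact 95% interval 25.7 to 30.7), 22.7% with siRNA 1 (20.7 to 24.8) and 11.7% with siRNA 2 (10.4 to 13.1).

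The 2 annotated starts of NR1D2 differ in their motifs, and the window of its second start holds the most motif matches of the 15 windows. It is shown with the first window of PER3, the other clock gene with a match to TTATGTAA, the only D-box spelling searched. The PER2 window printed above holds TTACGTAA, a near spelling that was not searched. The part of these motifs in the levels of the genes was not tested.
NR1D2 promoter, chr3:23945871-23946170, plus strand: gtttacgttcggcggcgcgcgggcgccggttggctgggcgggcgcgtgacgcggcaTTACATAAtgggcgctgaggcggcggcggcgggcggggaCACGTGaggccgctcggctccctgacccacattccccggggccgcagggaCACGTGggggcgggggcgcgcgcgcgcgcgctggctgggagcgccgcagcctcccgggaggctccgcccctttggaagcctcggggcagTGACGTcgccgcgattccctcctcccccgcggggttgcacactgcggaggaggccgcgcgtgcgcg
PER3 promoter, chr1:7784041-7784340, plus strand: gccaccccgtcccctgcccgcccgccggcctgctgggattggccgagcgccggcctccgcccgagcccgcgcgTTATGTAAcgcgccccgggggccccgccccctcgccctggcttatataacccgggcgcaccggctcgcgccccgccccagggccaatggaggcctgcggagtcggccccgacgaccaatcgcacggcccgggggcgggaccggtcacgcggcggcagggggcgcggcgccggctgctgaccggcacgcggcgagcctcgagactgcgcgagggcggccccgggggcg
The NR1D2 window holds E-boxes 155 and 105 bases before the start, a D-box 194 bases and a TGACGT core 16 bases before it. The PER3 window holds a D-box 177 bases before its start. A D-box match, TTATGTAA on either strand, occurs in 0.477% of the promoter windows of tested genes and a TGACGT core in 10.5%. None of the matches in the 15 windows overlaps another, and the second PER3 window, the first NR1D2 window, the first CLOCK window and the second BMAL1 window hold none of these motifs.

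**Figure D3:**
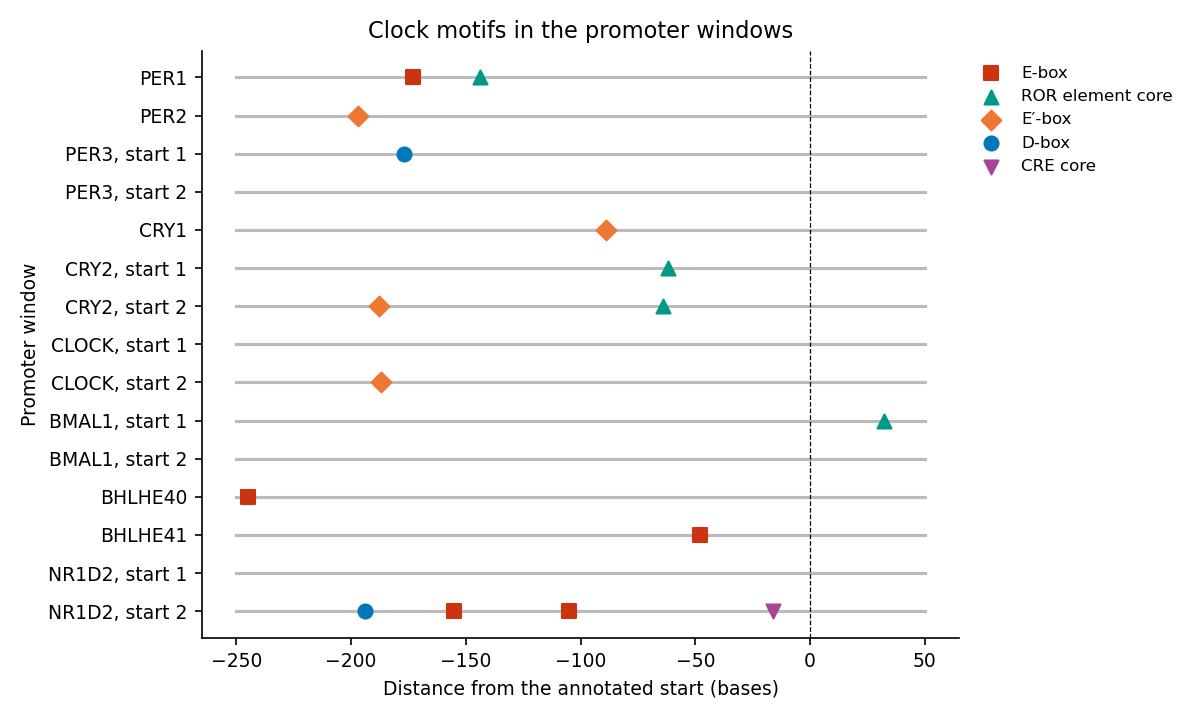
Matches to the E-box, E′-box, D-box, ROR element core and TGACGT core (CRE core) in each 300-base promoter window, by distance in bases from the annotated start (dashed line). E-boxes lie in the windows of PER1, BHLHE40, BHLHE41 and the second start of NR1D2. Matches to TTATGTAA, the only D-box spelling searched, lie in those of PER3 and NR1D2.

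The searched transcripts of NR1D2, BHLHE40 and PER3 hold a seed site of the labelled strand of the control siRNA, 1 of the 6 strands searched. These 3 genes were also the ones higher with both NONO siRNAs, an overlap picked out after the values were seen. The sites lie in the coding part of NR1D2 and BHLHE40 and in the coding part and 5′ UTR of PER3, and are shown with the match in capitals.
NR1D2 coding site: agggtttcttTCGGAGAagtattcaac
BHLHE40 coding site: tggaggagaaTCGGAGAagggcgactt
PER3 coding site: atacttccccTCGGAGAgacgcaataa
PER3 5′ UTR site: gaaaagctccTCGGAGAtgagcgtgac
This 7-base site occurs in 11.5% of the transcripts searched and in 1.78% of 3′ UTRs, and none of the clock genes holds it in the 3′ UTR. The labels do not say which strand of the control siRNA acts as guide. The seed site of its complementary strand, TGTCACG, occurs in 6.89% of the transcripts searched and in none of the clock genes. The part of the control siRNA sites in the clock values was not tested. With 1 control library, a lower level there through the control siRNA and a higher level after NONO knockdown cannot be told apart. PER1, BHLHE41, CLOCK and BMAL1 hold no seed site of any of the 6 strands in the transcript searched. PER2 holds one site of the complementary strand of NONO siRNA 1 in its coding part, and CRY1 one in its 5′ UTR, where such sites occur in 21.7% of the transcripts searched. Sites of the NONO siRNA 2 strands lie in genes that were higher with that siRNA too, with 2 coding sites in PER3, 1 for each strand, and 1 coding site for the labelled strand in BHLHE40.

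**Figure D4:**
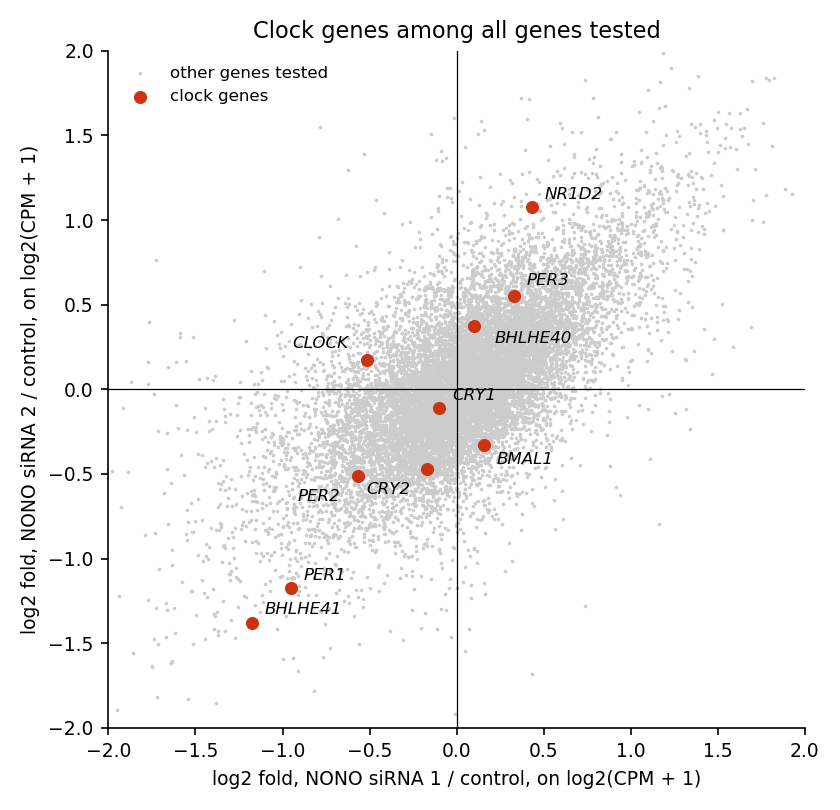
log2 fold with NONO siRNA 1 (x axis) and with NONO siRNA 2 (y axis) on log2(CPM + 1) for the clock genes (red) among all 13922 genes tested (grey), which share the control library; 44 genes outside ±2 are not drawn. BHLHE41 and PER1 lie far to the lower left, NR1D2 to the upper right, and CLOCK and BMAL1 on opposite sides of the axes.

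No clock gene differed by 2-fold or more between the 2 NONO siRNAs on the log2(CPM + 1) scale, which 2.05% of all genes did. The widest gaps were those of CLOCK (siRNA 1 minus siRNA 2, -0.69 on the log2 scale), NR1D2 (-0.64) and BMAL1 (0.49), and the narrowest was that of CRY1 (0.014). A comparison of single siRNAs rests on 1 library each and has no replicate check.

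The genes around the core loop were read from 7 lists of 61 genes, of which 58 were listed in all 3 tables and tested. In limma 1 of the 58 fell, where 0.079% of all genes tested did, and none rose. At an unadjusted p under 0.05 there were 11 of the 58, against 11.4% of all genes tested. The median fold over the 58 was 0.00058 on the log2 scale with siRNA 1 and -0.059 with siRNA 2, near the 0.025 and 0.0073 of all genes tested. edgeR called 2 of the 58 lower (CCND1 and CDKN1A), where it called 0.413% of all genes lower. DESeq2 called the same pair lower and HDAC1 higher, where it called 0.508% of all genes lower and 1.17% higher.

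**Figure D5:**
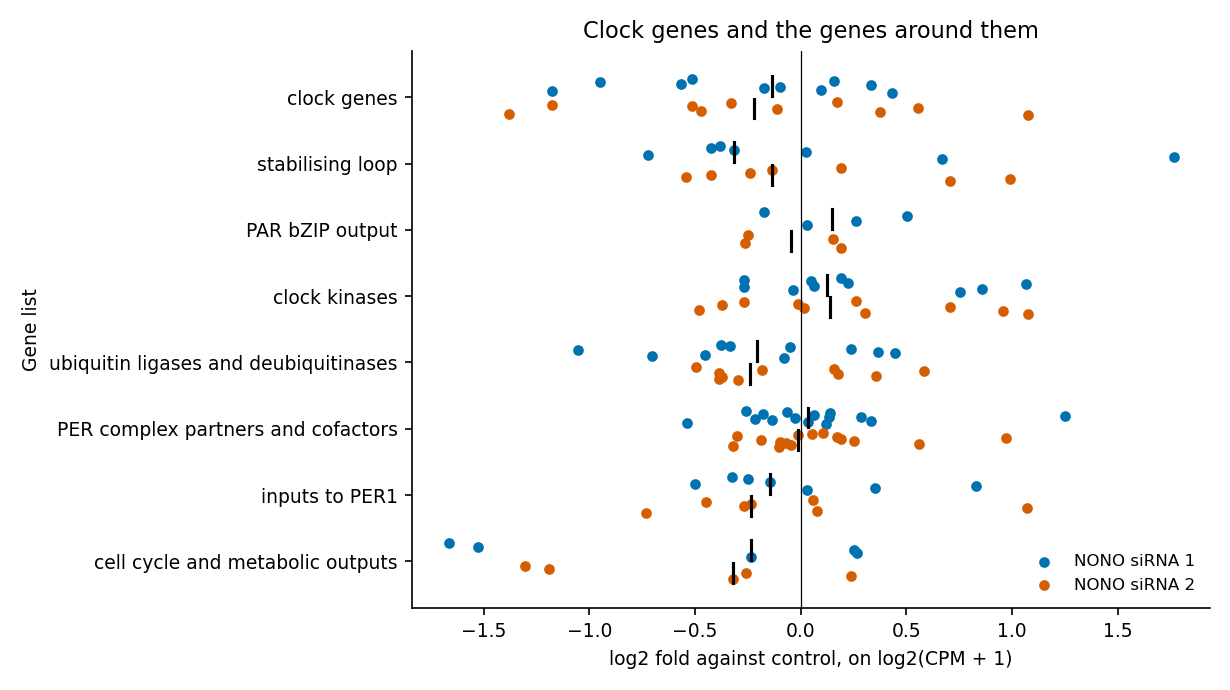
log2 fold against control on log2(CPM + 1) of each clock gene and each gene of the 7 surrounding lists, with NONO siRNA 1 (blue) and NONO siRNA 2 (orange); black bars are medians. CCND1 and CDKN1A are the pair at the far left of the output list, and RORB with siRNA 1 is the point at the far right.

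Genes of the second, stabilising loop, and other clock-related genes listed with them such as TIMELESS and BMAL2, did not pass the test. With both siRNAs, 2 of the 7 tested lay above and 3 below the control, and 3 had an unadjusted p under 0.05 in limma. RORB, a nuclear receptor that activates through the ROR element, gave 90 reads or 3.25 CPM in the control, 13.4 CPM with siRNA 1 and 7.45 CPM with siRNA 2 (log2 folds of 1.76 and 0.99, with an SE of 0.36 and adjusted p = 0.177 in limma). RORA, which has the same role, was lower instead, at 30.4 CPM in the control, 18.1 with siRNA 1 and 20.6 with siRNA 2 (adjusted p = 0.421 in limma). TIMELESS, a replication fork protein whose fly relative is a core clock gene, stood at 90.4 CPM in the control, 144 CPM with siRNA 1 and 148 CPM with siRNA 2 (log2 folds 0.67 and 0.71, adjusted p = 0.276 in limma). BMAL2, the paralog of BMAL1, was the more abundant of the pair per length, at 22.5 against 1.96 CPM per kb in the control, and its log2 folds of -0.38 and 0.19 had the signs of those of CLOCK.

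The PAR bZIP genes and NFIL3, whose proteins act on D-boxes, also stood near the control. None of the 4 passed in limma or had an unadjusted p under 0.05, while 2 lay above the control with both siRNAs and 1 below it. NFIL3, the repressor among them, stood at 24.2 CPM in the control, 29.3 with siRNA 1 and 20.0 with siRNA 2. TEF, an activator, stood at 8.74 CPM, 8.94 CPM and 10.1 CPM.

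Kinases that mark PER and CRY proteins counted 5 genes above the control with both siRNAs and 2 below it among 10 tested. None passed in limma, and 3 had an unadjusted p under 0.05. GSK3B stood at 77.8 CPM in the control, 142 with siRNA 1 and 152 with siRNA 2, or log2 folds of 0.86 and 0.96 (SE 0.23, adjusted p = 0.165 in limma). PRKAA2, a catalytic subunit of AMPK, the kinase that marks CRY1 in mouse cells, stood at 20.2 CPM in the control, 34.8 with siRNA 1 and 43.7 with siRNA 2, or log2 folds of 0.75 and 1.07 (SE 0.27, adjusted p = 0.234 in limma). In both cases the 2 knockdown libraries lay above the control.

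Genes of ubiquitin ligases and deubiquitinases counted 3 above and 6 below the control with both siRNAs among 10 tested. None passed in limma, and 1 had an unadjusted p under 0.05. FBXW11 and BTRC code for the beta-TrCP proteins that mark PER proteins for degradation. FBXW11 stood at 131 CPM in the control, 62.3 with siRNA 1 and 99.6 with siRNA 2 (log2 folds of -1.05 and -0.39, adjusted p = 0.414 in limma). BTRC stood at 57.8 CPM, 44.2 CPM and 40.7 CPM (-0.38 and -0.50, adjusted p = 0.565 in limma). Both beta-TrCP genes were lower in each knockdown library than in the control.

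Partners of the PER complex and clock cofactors were close to the control on the whole. Among 15 tested, 4 lay above and 4 below the control with both siRNAs. None passed in limma, and 1 (HDAC1) had an unadjusted p under 0.05. HDAC1, a histone deacetylase of the SIN3A complex, stood at 80.9 CPM in the control, 194 with siRNA 1 and 160 with siRNA 2 (log2 folds of 1.25 and 0.97, SE 0.24, adjusted p = 0.114 in limma and 0.0375 in DESeq2). SFPQ, the paralog of NONO that recruits SIN3A to the PER complex in mouse cells, stood at 649 CPM, 819 CPM and 959 CPM (adjusted p = 0.452 in limma).

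The signals that feed into PER1 showed no common direction. Of 7 genes of the CREB and glucocorticoid routes, 2 lay above and 3 below the control with both siRNAs. The 3 below were CRTC1 (log2 folds of -0.25 and -0.45), CRTC2 (-0.14 and -0.23) and CRTC3 (-0.50 and -0.27). Their adjusted p in limma was 0.697, 0.831 and 0.656. None of the 7 passed in limma, and 1 (FKBP5) had an unadjusted p under 0.05. FKBP5, which like PER1 is induced by glucocorticoids, stood at 30.4 CPM in the control, 54.8 with siRNA 1 and 65.0 with siRNA 2 (log2 folds of 0.83 and 1.07, SE 0.26, adjusted p = 0.186 in limma). TSC22D3, another glucocorticoid target, stood at 16.1 CPM in the control, 16.5 with siRNA 1 and 9.27 with siRNA 2. The part of these inputs in the PER1 level was not tested.

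Among the cell cycle and metabolic outputs, CCND1 fell. CCND1, cyclin D1 of the G1 phase, stood at 2178 CPM in the control, 686 with siRNA 1 and 882 with siRNA 2 (log2 folds of -1.67 and -1.30, SE 0.21, adjusted p = 0.0427 in limma). CDKN1A, the p21 inhibitor of cyclin-dependent kinases, stood at 477 CPM in the control, 165 with siRNA 1 and 208 with siRNA 2 (adjusted p = 0.0643 in limma and 0.00955 in edgeR). WEE1, a mitotic kinase gene with E-boxes that clocks drive in mouse liver, stood at 70.6 CPM in the control, 59.8 with siRNA 1 and 56.4 with siRNA 2. Among the 5 tested, 3 lay below and 1 above the control with both siRNAs. The call on CCND1 was lost under 5 of 9 other settings, where its adjusted p reached 0.566, and its log2 fold stayed between -1.52 and -1.48.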

How the data were processed

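RNA sequencing gave 3 UM-UC-3 libraries, of which 1 had control siRNA and 2 had NONO siRNAs of different sequence. The labels do not say whether they come from separate cultures, so p-values cannot be taken to measure the spread between cultures. They rest on the spread between the 2 NONO siRNA libraries and on the variance trend over all genes tested. Per the submitters' processing notes, bcl2fastq 2.19.1, HISAT2 2.1.0, HTSeq 0.6.1 were used with hg19 and GRCh37 as builds, and no roles are given. Neither the strand setting nor the annotation release was given in the sources, and isoforms were not measured. The authors deposited normalized CPM values per Ensembl gene, not scaled by length. Of these, 99.3% to 99.5% are whole multiples of 1 read within 0.01 reads, and the rest, at 0.5 of a read, were taken as 0.

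Genes that reached 1 CPM in 1 library or more were tested with limma 3.58.1 with a trend (R 4.3.3) on log2(CPM + 1), both siRNA libraries against the control. P-values were two-sided and Benjamini-Hochberg adjusted over all genes tested, with 1 residual and 7.68 prior degrees of freedom. The lone control is assumed to vary like the siRNA libraries, whose spread includes off-target differences, and most of the variance of a gene comes from the trend. Folds on this scale understate changes near 1 CPM. edgeR 4.0.16 (quasi-likelihood, 16963 genes) and DESeq2 1.42.0 used the recovered reads; edgeR called 156 genes. The limma step was tested on simulated data. Intervals are at 95% and cover counting error only, since read pairs are not independent molecules.

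Clock genes and lists were chosen with earlier results of these data known, and the shares within families were added after the values were seen. From each list the text names called genes and then up to 2 genes with the largest mean absolute log2 fold at a mean of at least 5 CPM. NR1D1, RORA, BMAL2, CRTC1, CRTC2 and CRTC3 were named after their values were seen. Symbols came from a name table that matched 21049 identifiers, and coordinates and exon lengths are of GENCODE 29 on GRCh38, not the build of the notes. Seed sites were searched in 1 transcript per gene, the one with the longest coding part. Exons of other genes cover at most 868 bases of a clock gene (UTS2 on the other strand of PER3), and without a known strand setting such reads cannot be told apart. Alternatives were TMM and upper-quartile scaling, other pseudocounts and filters, limma without a trend, and each siRNA alone.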

Additional observations from a re-analysis of the deposited data

How the results depend on the processing

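The number of genes called over all genes moved with the settings. It was 30 in limma, 5 with TMM scaling, 5 with upper-quartile scaling, 5 with a mean of at least 5 CPM, 3 without a trend, 0 with no filter (1882 at an unadjusted p under 0.05), 156 in edgeR and 198 in DESeq2, and the cause was not tested. No clock gene was called by limma under any of its settings, and 1 (BHLHE41, lower) was called by edgeR and 1 (the same gene) by DESeq2. Of the genes of the surrounding lists, 1 was called in limma, 0 with TMM, upper-quartile scaling, no filter, the stricter filter or no trend, 2 in edgeR and 3 in DESeq2. The median log2 fold of the clock genes was -0.14, and -0.22 to -0.14 with 1 siRNA left out. The mean log2 fold turned sign with 1 siRNA left out for CLOCK (-0.51 to 0.17), BMAL1 (-0.33 to 0.16), NFIL3 (-0.26 to 0.26) and TSC22D3 (-0.73 to 0.032). No other gene run under these settings turned sign, but NR1D1 (0.027 and -0.43) and BMAL2 (-0.38 and 0.19), which were not run, also differed in the sign of the log2 fold between the siRNAs. NONO lost its call with no filter (adjusted p = 0.566 in limma). With 1 siRNA left out no residual degree of freedom remains, so counts of calls could not be given. No paired analysis was possible because the control has a single library. PER3, at 129 to 209 reads, and PER1, at 198 reads with siRNA 2, have wide counting errors.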
